A study of Solanum lycopersicum with 14 samples.

Results

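The approach of tomato fruit to the mature green stage was examined by comparing fruit at 28 days after flowering (DAF) with fruit at 21 DAF. The comparison was chosen by stage alone: of the 14 RNA-seq libraries of the series, it takes the 4 libraries made at these times, which are AC and HG6-61 at 28 DAF and AC and HG6-61 at 21 DAF, and all 26397 genes of the count table. Ailsa Craig (AC) comes from England and matures early, and HG6-61 is a late breeding line from China. Each library was made from fruit mixed from 5 plants of 1 cultivar at 1 stage, without any treatment, and there was 1 library per cultivar and stage. The 2 cultivars therefore serve as the 2 replicates of each stage, so that the test measures what they share and a change seen in 1 cultivar rests on 1 library at each time. GEO's stage field calls every library before 42 DAF mature green, while the sampling description places mature green at 35 DAF, breaker at 42 DAF and ripening at 49 DAF. The methods describe the tissue as pericarp and the sample labels call it fruit. A symbol belongs to the Arabidopsis gene that the files give as nearest to a tomato gene, and the roles stated are those known in Arabidopsis. Where 2 values stand together for a stage, the first is AC and the second HG6-61.

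As background, a tomato fruit first divides and then expands its cells, fixes some carbon in its own green plastids and stores starch for a time before it ripens. On the way to mature green the cells stop growing, the seeds inside fill with storage proteins, and the fruit becomes able to respond to ethylene. Ethylene then starts ripening, in which chlorophyll is lost and the carotenoid lycopene builds up.

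The 4 libraries held 4221600 counted reads (AC, 28 DAF), 3927801 (HG6-61, 28 DAF), 2052528 (AC, 21 DAF) and 6274456 (HG6-61, 21 DAF), within a range of 1461817 to 6274456 over all 14. A count of 0 is compatible with up to 3 reads, which is 0.783 CPM (counts per 1000000 counted reads, scaled with TMM for the makeup of each library) in AC at 28 DAF, 0.793 CPM in HG6-61 at 28 DAF, 1.47 CPM in AC at 21 DAF and 0.478 CPM in HG6-61 at 21 DAF. These limits, and all intervals on single ratios, cover counting error only. Genes for light harvesting and photosystems marked green tissue in every library, at 2060 and 2400 summed CPM at 28 DAF and 4900 and 4170 summed CPM at 21 DAF. Genes of seed storage proteins, oleosins and late embryogenesis proteins, a list of 21 that marks seeds and not pericarp, were also abundant. They took 2.97% of the counts in AC and 2.29% in HG6-61 at 28 DAF, against 3.09% in AC and 0.738% in HG6-61 at 21 DAF. All 21 had a read in both AC libraries and 20 had a read in each HG6-61 library. Their share was thus higher at 28 DAF in HG6-61 and about level in AC. Of the 2 pollen markers, none had a read at 28 DAF, and 1 read was counted in HG6-61 at 21 DAF.

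Over both cultivars, 177 of the 18332 tested genes (0.966%) differed between 28 and 21 DAF in edgeR's quasi-likelihood test at a Benjamini-Hochberg adjusted p under 0.05. Of these, 46 (0.251% of the genes tested) were higher and 131 (0.715%) were lower at 28 DAF. The test was fitted to the 8 libraries from 7 to 28 DAF with cultivar and stage as terms, which leaves 3 residual degrees of freedom. Its p-values set the shared change against how the cultivars disagree over these stages, after their average difference is removed. They do not measure the spread between fruits of a cultivar. Counting only genes with 10 reads or more at either time in a cultivar, all 46 genes called higher were at least 2-fold up in each cultivar, and 125 of the 131 called lower were at least 2-fold down in each. At the stricter limits used in the study (adjusted p under 0.01 and a log2 change over 2) no gene was called by edgeR, 157 were called by DESeq2, and 3341 genes had an unadjusted p under 0.05 in edgeR, 1488 of them higher (8.12%) and 1853 lower (10.1%). The number called depended on the libraries: it was 0 without either of the 21 DAF libraries, 125 without AC at 28 DAF and 1539 without HG6-61 at 28 DAF. It was also 0 when all 14 libraries were fitted, with 1734 genes at an unadjusted p under 0.05, and 696 with DESeq2, of which 255 (1.39%) were higher and 441 (2.41%) lower.

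**Figure D1:**
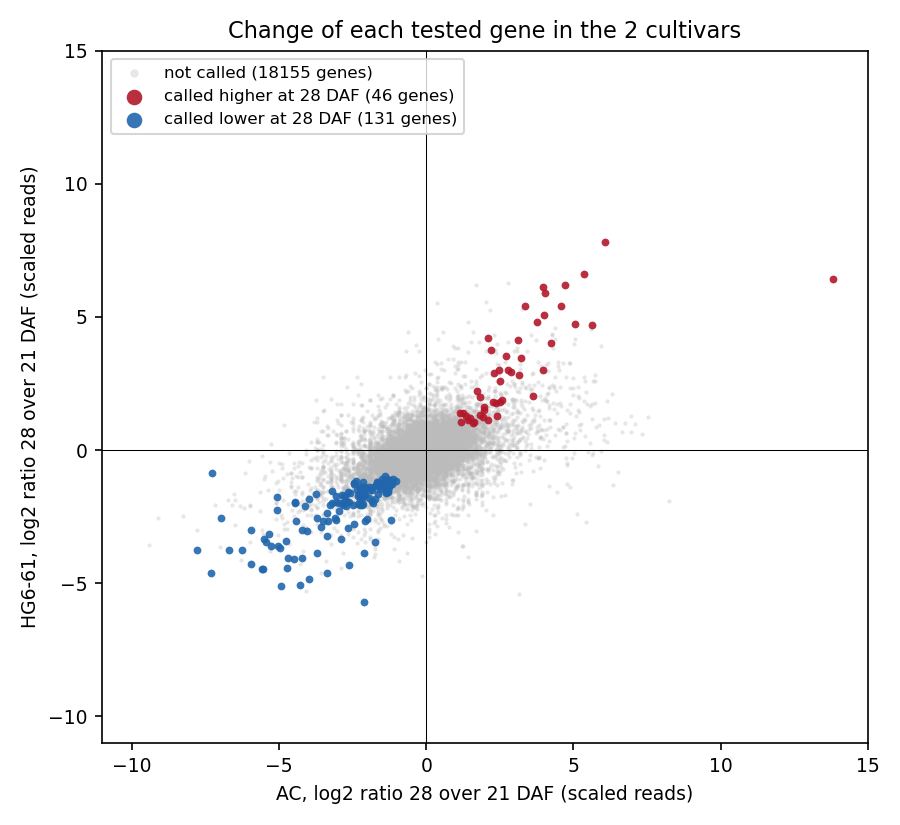
Log2 ratio of scaled reads, 28 over 21 DAF, in AC (x axis) and HG6-61 (y axis) for each tested gene, with a count of 0 set to 3 reads. The 46 genes called higher lie in the upper right and the 131 called lower in the lower left, and 1 gene with 27287 reads in AC at 28 DAF and 1 read at 21 DAF lies far to the right.

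The falls shared by both cultivars began with the green apparatus. Of 137 genes annotated to light harvesting and the photosystems, 69 were tested, 10 (14.5%) fell and none rose, and 65 of the 69 had a negative log2 change. Their median log2 change was -1.10, against -0.01 over all genes tested. Of all 18332 genes tested, 0.715% were called lower, 0.251% were called higher and 9313 had a negative log2 change. LHCB1.3, the major chlorophyll-binding antenna protein of photosystem II in Arabidopsis, is the closest match of 3 of the tomato genes called lower. Solyc03g005760.1 on chromosome 3, the one with the most reads, was at 6.53 CPM in AC and 4.23 CPM in HG6-61 at 28 DAF, against 121 and 34.3 CPM at 21 DAF (log2 change -3.67 ± 0.37 (SE), edgeR adjusted p = 0.0144). Solyc03g005780.1, also on chromosome 3, had 3 and 1 reads at 28 DAF and 31 and 56 reads at 21 DAF. Solyc02g071020.2 on chromosome 2 had 4 and 5 reads at 28 DAF and 35 and 69 reads at 21 DAF. The match is not limited to these genes, since each of the 4 libraries also held an LHCB1.3 gene without a read. Such close copies share sequence, and reads that mapped to several places had been removed, so that the level of each copy is uncertain.

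Several parts of photosystem I were among the called falls. LHCA4, an antenna protein of photosystem I, was at 0.783 CPM in AC and 5.29 CPM in HG6-61 at 28 DAF, against 35.7 and 53.4 CPM at 21 DAF (log2 change -3.89 ± 0.55 (SE), edgeR adjusted p = 0.0299). The remaining 6 called members, named after their values were seen, were LHCA1 and the photosystem I subunits PSAF, PSAG, PSAK, PSAL and PSAO, with log2 changes from -2.15 (PSAO) to -1.37 (PSAL). PSAF had 73.9 and 86.2 CPM at 28 DAF and 236 and 203 CPM at 21 DAF. Of the list's members with 10 reads or more at either time, 40 of 54 were past 2-fold down in AC and 34 of 68 in HG6-61, and 21 were so in both. Of all genes with such reads, 11.5% were past 2-fold down in AC and 10.4% in HG6-61. Past 2-fold down in both were 3.96% of all genes measured in both cultivars.

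Enzymes that make chlorophyll and fix carbon were lower by sign but seldom called. In chlorophyll synthesis 1 of 19 tested genes fell (5.26%, against 0.715% of all genes) and 17 had a negative log2 change (median -0.63). The gene that fell was PCB2, the divinyl reductase of chlorophyll synthesis, at 24.0 and 36.7 CPM at 28 DAF and 67.6 and 77.6 CPM at 21 DAF. In the Calvin cycle none of 22 tested genes was called, and the median log2 ratio was -1.30 in AC and -0.24 in HG6-61, with 13 of 23 members with 10 reads past 2-fold down in AC and 2 of 22 in HG6-61. Of all genes with 10 reads, 11.5% were past 2-fold down in AC and 10.4% in HG6-61. FBA2, a plastid aldolase and the member with the most reads, was at 518 and 365 CPM at 28 DAF and 500 and 288 CPM at 21 DAF, which is a log2 change of 0.19 ± 0.21 (SE). None of the 8 chlorophyll breakdown genes was called, and their median log2 change was -0.01. NYC1, the reductase that opens chlorophyll b breakdown, was at 269 and 174 CPM at 28 DAF and 239 and 156 CPM at 21 DAF. PAO, which opens the chlorophyll ring, was at 58.2 and 37.0 CPM at 28 DAF and 59.3 and 38.2 CPM at 21 DAF.

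**Figure D2:**
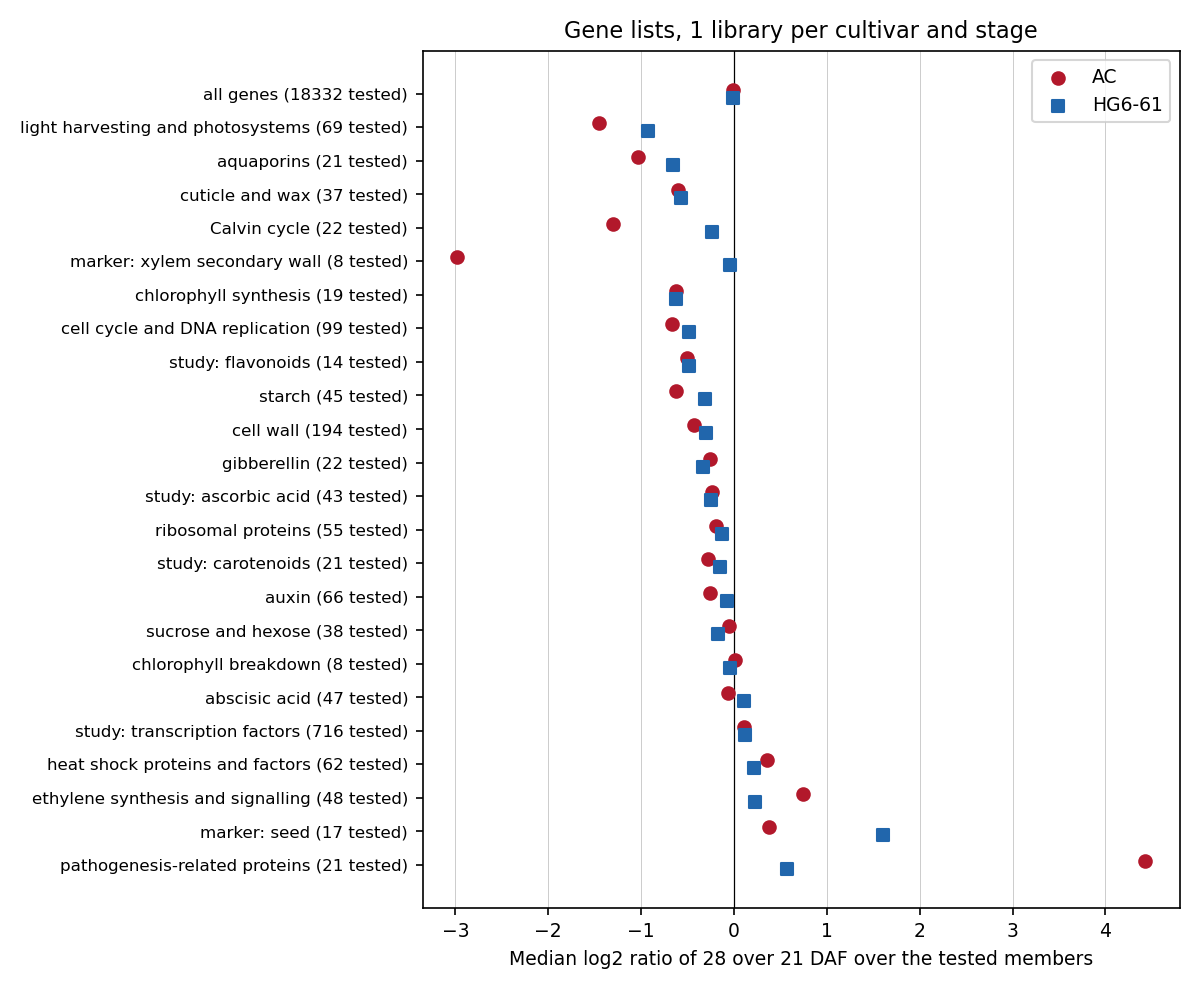
Median log2 ratio of 28 over 21 DAF over the tested members of each gene list other than the study's own selections, in AC (circles) and HG6-61 (squares), with all genes in the top row. Light harvesting lies at -1.45 in AC and -0.93 in HG6-61, the pathogenesis-related list lies at 4.43 in AC and 0.57 in HG6-61, and the seed markers at 0.38 in AC and 1.61 in HG6-61.

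Genes that build and loosen the cell wall followed. Of 194 tested cell wall genes 6 fell (3.09%, against 0.715% of all genes), and none rose. A negative sign was found for 132, and 27 were past 2-fold down in both cultivars (median log2 change -0.44). Of all 18332 genes tested 9313 had a negative sign. Past 2-fold down in both were 3.96% of all genes measured in both cultivars. EXPB2, a beta-expansin, which loosens walls, had no read in either library of 28 DAF, against 77 reads in AC and 110 in HG6-61 at 21 DAF, and it stayed at 0 in all 6 later libraries. Set against a floor of 3 reads per library, it was at least 48.2-fold lower in AC and at least 22.1-fold lower in HG6-61 at 28 DAF. XTH8, a xyloglucan endotransglucosylase, had 23 and 24 reads at 28 DAF and 81 and 169 reads at 21 DAF. BGAL8, a beta-galactosidase, had 4.18 and 5.55 CPM at 28 DAF and 23.5 and 22.9 CPM at 21 DAF. CSLA2, a mannan synthase, had 7.05 and 6.08 CPM at 28 DAF and 16.2 and 37.9 CPM at 21 DAF. The expansin had no detectable read by 28 DAF at this depth, while the 3 other genes remained measurable. Among 9 tested wall genes that the study selected on these same samples, 2 fell, PGIP1 and a pectate lyase (Solyc03g071570.2), and this selection is not independent of the data. PGIP1, an inhibitor of polygalacturonase, had 9.13 and 16.9 CPM at 28 DAF and 35.3 and 44.3 CPM at 21 DAF. The lyase had 18.0 and 20.9 CPM at 28 DAF and 40.6 and 50.2 CPM at 21 DAF.

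The cuticle, the waxy skin of the fruit, had 4 of 37 tested genes called lower (10.8%, against 0.715% of all genes). None was called higher, and the median log2 change was -0.84. All 4 act in the synthesis of long-chain lipids or its control in Arabidopsis. WIN1, a transcription factor that turns on wax and cutin genes, had 3.92 and 8.99 CPM at 28 DAF and 52.9 and 27.9 CPM at 21 DAF (log2 change -2.56 ± 0.45 (SE), edgeR adjusted p = 0.0494). Solyc05g009270.2 (POP1), a condensing enzyme of wax synthesis, had 1 read in AC and 20 in HG6-61 at 28 DAF, against 67 and 194 reads at 21 DAF. VC2, which acts in wax chain elongation, had 7.57 and 21.7 CPM at 28 DAF and 32.3 and 70.1 CPM at 21 DAF. LACS1, which activates long-chain fatty acids, had 9.13 and 17.7 CPM at 28 DAF and 49.5 and 42.1 CPM at 21 DAF.

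Water channels and DNA replication genes also had called falls. Of 21 tested aquaporins 2 fell (9.52%, against 0.715% of all genes), with a median log2 change of -0.88 over the list. SIMIP, a plasma membrane aquaporin, had 4.44 and 5.29 CPM at 28 DAF and 21.1 and 22.3 CPM at 21 DAF. TIP1;1, a vacuolar aquaporin, had 54.8 and 88.3 CPM at 28 DAF and 146 and 175 CPM at 21 DAF. SIMIP was 4.75-fold lower in AC and 4.22-fold lower in HG6-61, and TIP1;1 was 2.66-fold lower in AC and 1.99-fold lower in HG6-61. Of 99 tested cell cycle and DNA replication genes 3 fell (3.03%, against 0.715% of all genes), 79 had a negative sign, and the median was -0.63. Of all 18332 genes tested 9313 had a negative sign. With so few calls, each of these lists rests mostly on its signs and median. RNR1, the large subunit of the ribonucleotide reductase that makes DNA precursors, had 13.1 and 13.5 CPM at 28 DAF and 38.7 and 36.8 CPM at 21 DAF. The other called genes were histone H2B genes (HTB1), whose copies are alike in sequence: Solyc11g066430.1 had 15.1 and 11.4 CPM at 28 DAF and 57.8 and 39.5 CPM at 21 DAF. Solyc08g082070.2, matched to the Arabidopsis HMG-box protein gene AT4G23800, had 5.48 and 5.02 CPM at 28 DAF and 24.5 and 20.2 CPM at 21 DAF and was the 1 called fall among 716 tested transcription factors.

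Among genes of carbon storage, the called falls were in enzymes that handle plastid glucans. Of 45 tested starch genes 2 fell (4.44%, against 0.715% of all genes) and none rose. A negative sign was found for 38, and the median log2 change was -0.47. Solyc05g012510.2, matched to the plastid starch phosphorylase AT3G29320, was at 104 CPM in AC and 203 CPM in HG6-61 at 28 DAF, against 454 and 650 CPM at 21 DAF (log2 change -1.87 ± 0.28 (SE), edgeR adjusted p = 0.0328). DPE1, which rearranges short glucans, had 30.8 and 72.9 CPM at 28 DAF and 146 and 195 CPM at 21 DAF. Each was lower in both cultivars, and AC lay below HG6-61 at both times. Of 38 tested sucrose and hexose genes 1 fell (2.63%, against 0.715% of all genes). This was HXK1, a hexokinase that also senses glucose, at 32.6 and 30.9 CPM at 28 DAF and 80.3 and 91.4 CPM at 21 DAF. SUS4 (Solyc12g009300.1), a sucrose synthase named after its values were seen, was at 246 and 603 CPM at 28 DAF and 1012 and 2163 CPM at 21 DAF, but did not pass the test (log2 change -1.92 ± 0.48 (SE), edgeR adjusted p = 0.0969).

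Of the 14 flavonoid genes that the study listed, 2 fell (14.3%, against 0.715% of all genes) and none rose, with a median of -0.51. CHS2 (Solyc05g053550.2, TT4), a chalcone synthase that opens the pathway, had 42 and 59 reads at 28 DAF and 229 and 506 reads at 21 DAF (log2 change -2.86 ± 0.29 (SE), edgeR adjusted p = 0.0144). FLS1, a flavonol synthase, was at 101 and 83.5 CPM at 28 DAF and 253 and 183 CPM at 21 DAF. Outside that list, 2 of the largest named rises had flavonoid enzymes as their closest Arabidopsis match. TT18, matched to the anthocyanidin synthase, had 30.5 and 11.6 CPM at 28 DAF and 4.41 and 1.43 CPM at 21 DAF. Solyc04g071780.2, matched to TT7, a cytochrome P450 that hydroxylates flavonoids, had 76.2 and 16.6 CPM at 28 DAF and 11.8 and 1.43 CPM at 21 DAF. None of 21 carotenoid and 43 ascorbic acid genes of the study's lists was called, with medians of -0.18 and -0.21. MDAR1, which recycles ascorbate, was at 252 and 282 CPM at 28 DAF and 274 and 280 CPM at 21 DAF. VTC2, which commits sugar to ascorbate, was at 195 and 252 CPM at 28 DAF and 268 and 228 CPM at 21 DAF. These lists were drawn up by the study with these samples in hand.

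Several of the largest shared falls ended at or near 0 reads. RGP3, a reversibly glycosylated polypeptide, had 0 and 0 reads at 28 DAF and 34 and 32 reads at 21 DAF. CDR1, an aspartic protease of disease resistance, had 0 and 0 reads at 28 DAF and 25 and 18 reads at 21 DAF. ARPN, a plantacyanin, had 0 reads in AC and 5 in HG6-61 at 28 DAF, against 254 and 203 reads at 21 DAF, and was at least 159-fold lower in AC. ARPN was well covered at 21 DAF in both cultivars. RGP3 and CDR1 had fewer reads, so that in HG6-61 they were only bounded as at least 6.43-fold and 3.62-fold lower. RD22, a dehydration-responsive BURP protein, had 0 and 7 reads at 28 DAF and 165 and 157 reads at 21 DAF. ATA7, known from anthers, had 0 and 2 reads at 28 DAF and 75 and 73 reads at 21 DAF. The neighbouring serine carboxypeptidase-like genes Solyc06g083020.1 and Solyc06g083030.2, both matched to scpl20, went down together, the second with 10 and 7 reads at 28 DAF and 140 and 253 reads at 21 DAF. RCI3A, a peroxidase, had 5 and 3 reads at 28 DAF and 84 and 63 reads at 21 DAF. ADK2, an adenosine kinase, had 1 and 2 reads at 28 DAF and 10 and 55 reads at 21 DAF, and PAR1, a regulator of shade responses, 0 and 1 reads at 28 DAF and 7 and 87 reads at 21 DAF. The lowest counts of these 2 genes at 21 DAF were in AC, the shallowest library of the 4. Another 2 genes without a symbol had no read at 28 DAF in either cultivar: Solyc07g056610.1 had 69 and 55 reads and Solyc07g062360.1 had 35 and 20 reads at 21 DAF. SOT17, a sulfotransferase, had 6 and 6 reads at 28 DAF and 32 and 64 reads at 21 DAF. It fell together with a glycosyltransferase (Solyc09g059170.1) as the 2 called members among 10 secondary metabolism genes that the study selected on these samples.

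**Figure D3:**
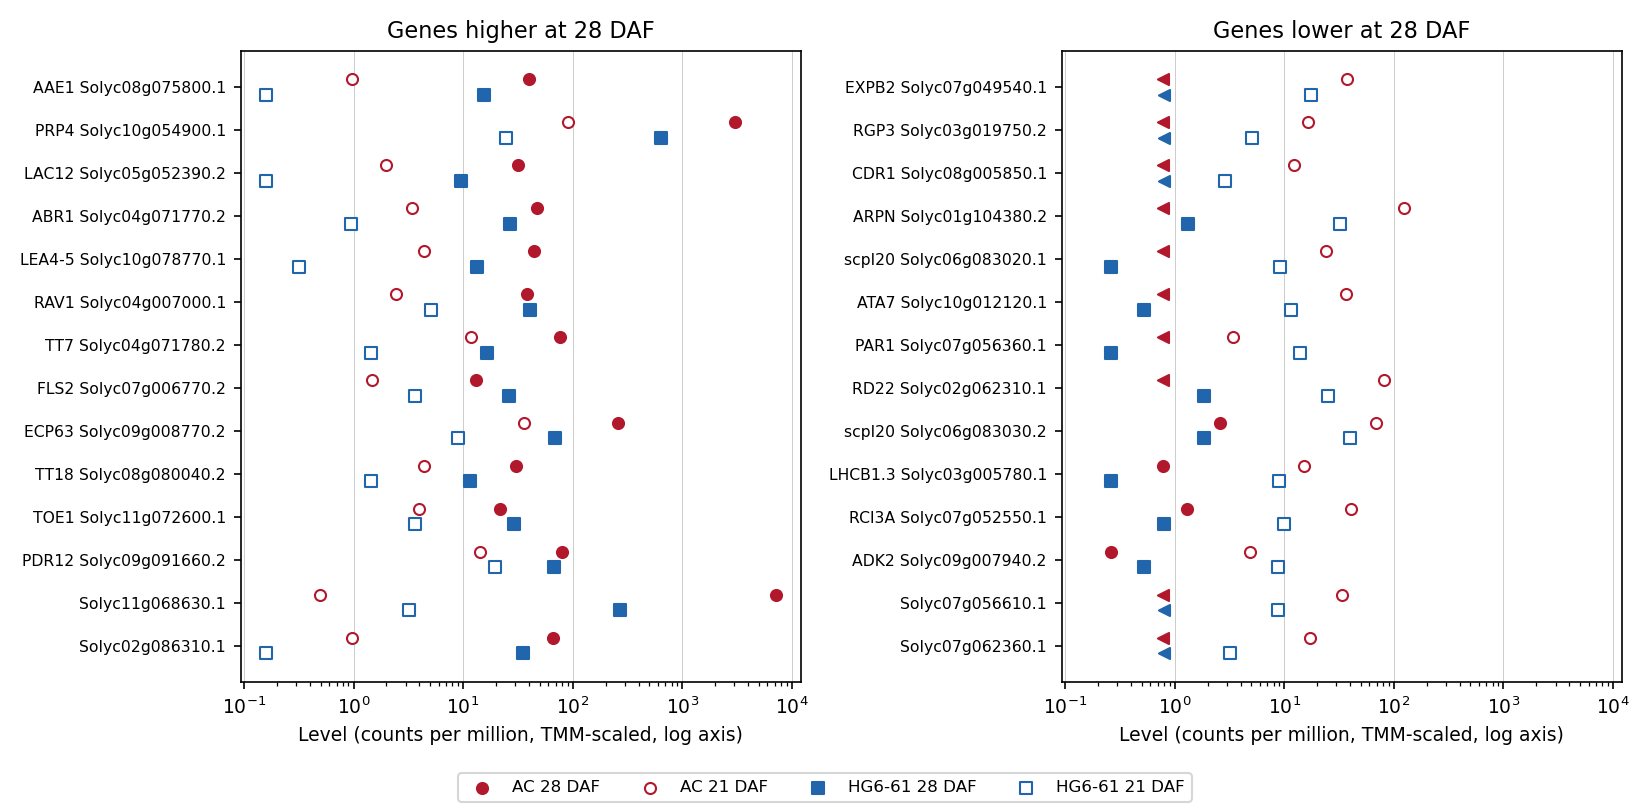
Levels in CPM (log axis) of the 14 named genes higher at 28 DAF (left panel) and the 14 named genes lower at 28 DAF (right panel), in AC (circles) and HG6-61 (squares), with filled symbols for 28 DAF, open symbols for 21 DAF and a triangle at the worth of 3 reads where the count was 0. Filled and open symbols of a cultivar are well apart in every row, and the AC levels of PRP4 (3010 CPM) and Solyc11g068630.1 (7120 CPM) at 28 DAF are the highest plotted.

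The shared rises were fewer than the falls, except that the 4 libraries of 21 and 28 DAF alone gave 18 higher and 12 lower. Solyc11g068630.1, on chromosome 11 and with no symbol, had 27287 reads in AC and 1025 in HG6-61 at 28 DAF, against 1 and 20 reads at 21 DAF. Its ratio was 14500 in AC (95% counting interval 2610 to 574000) and 85.0 in HG6-61 (54.8 to 140). It was at most 18.8 CPM in the other 12 libraries of the series. Solyc02g086310.1, matched to the lipid transfer protein gene AT3G18280, had 252 and 134 reads at 28 DAF and 2 and 1 reads at 21 DAF. AAE1, an acyl-activating enzyme, had 154 and 59 reads at 28 DAF and 2 and 1 reads at 21 DAF, with ratios of 41.0 in AC (11.2 to 342) and 97.9 in HG6-61 (16.9 to 3930). LAC12, a laccase, which oxidises phenolics in cell walls, had 122 and 36 reads at 28 DAF and 4 and 1 reads at 21 DAF. PRP4, a proline-rich protein of the cell wall, had the most reads of the named rises with a symbol, at 3010 CPM in AC and 643 CPM in HG6-61 at 28 DAF, against 91.6 and 24.4 CPM at 21 DAF (log2 change 4.91 ± 0.49 (SE), edgeR adjusted p = 0.0144). For all 5 genes the AC library of 28 DAF was the highest of the 4.

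ECP63 and LEA4-5, matched to late embryogenesis proteins, which protect cells and seeds during drying, were among the 12 largest named rises. ECP63 was at 261 CPM in AC and 69.5 CPM in HG6-61 at 28 DAF, against 35.7 and 9.08 CPM at 21 DAF (log2 change 2.90 ± 0.28 (SE), edgeR adjusted p = 0.0144). LEA4-5 had 171 and 51 reads at 28 DAF and 9 and 2 reads at 21 DAF. ECP63 was 7.30-fold and LEA4-5 10.1-fold higher in AC, where the seed markers took 2.97% of the counts at 28 DAF and 3.09% at 21 DAF. ECP63 was 7.65-fold and LEA4-5 42.3-fold higher in HG6-61 (95% counting interval 11.1 to 359 for LEA4-5), where the seed markers took 2.29% of the counts at 28 DAF and 0.738% at 21 DAF. In the seed marker list itself none of 17 tested genes was called, and the median log2 ratio was 0.38 in AC and 1.61 in HG6-61. CRU1 (Solyc09g072560.2), a seed storage globulin, was at 8420 and 6050 CPM at 28 DAF and 6480 and 1550 CPM at 21 DAF. Of the markers with 10 reads, 5 of 19 were past 2-fold up in AC and 12 of 17 in HG6-61, against 11.8% and 5.61% of all genes with 10 reads. The part of these markers in the rises that both cultivars shared was not tested. In bulk tissue, a change in the number of cells of a kind and a change in RNA per cell cannot be told apart.

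Regulators of hormone responses were also among the rises. Of 716 tested transcription factors from the study's list 4 rose (0.559%) and 1 fell, and the median was 0.10. ABR1, an ERF factor that represses abscisic acid responses in Arabidopsis, had 180 and 101 reads at 28 DAF and 7 and 6 reads at 21 DAF (log2 change 4.26 ± 0.60 (SE), edgeR adjusted p = 0.0386). RAV1, an AP2/B3 factor, had 38.4 and 40.7 CPM at 28 DAF and 2.45 and 5.10 CPM at 21 DAF. TOE1, an AP2 factor that delays flowering in Arabidopsis, had 21.7 and 29.3 CPM at 28 DAF and 3.92 and 3.66 CPM at 21 DAF. The last of the 4 was EIN3 (Solyc01g009170.2), the factor that switches on ethylene-responsive genes, with 1056 and 824 reads at 28 DAF and 251 and 661 reads at 21 DAF, 2.24-fold in AC and 2.07-fold in HG6-61 (log2 change 1.11 ± 0.20 (SE), edgeR adjusted p = 0.0494). It was the 1 gene called among 48 tested ethylene genes, of which 38 had a positive sign (median 0.37). PDR12, a transporter that imports abscisic acid in Arabidopsis, had 80.6 and 67.1 CPM at 28 DAF and 14.2 and 19.4 CPM at 21 DAF. FLS2, the receptor of bacterial flagellin, had 50 and 99 reads at 28 DAF and 3 and 23 reads at 21 DAF. Among auxin genes 1 of 66 was called, GH3.1, which conjugates auxin to amino acids, at 22.7 and 23.8 CPM at 28 DAF and 6.86 and 5.10 CPM at 21 DAF. In the gibberellin list 1 of 22 was called, KAO2, an oxidase of gibberellin synthesis, which fell to 24 and 38 reads at 28 DAF, against 92 and 206 reads at 21 DAF. Over all genes tested 0.251% were called higher and 0.715% lower, so that 1 call in a list says little about the list.

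Other groups showed no calls. None of 47 abscisic acid genes was called (median 0.04). Solyc01g087260.2 (symbol NCED1, matched to AT3G63520), a carotenoid cleavage dioxygenase, was at 252 and 246 CPM at 28 DAF and 236 and 184 CPM at 21 DAF. Solyc07g056570.1 (STO1), a 9-cis-epoxycarotenoid dioxygenase among the study's selected hormone genes, was not called either. It was at 278 and 133 CPM at 28 DAF and 151 and 134 CPM at 21 DAF, which is 1.84-fold in AC and 0.992-fold in HG6-61. PP2CA, a brake on abscisic acid signalling, was at 470 and 307 CPM at 28 DAF and 461 and 288 CPM at 21 DAF. None of 62 heat shock genes was called (median 0.36), and HSP90.2, a chaperone, was at 7740 and 10400 CPM at 28 DAF and 7480 and 10000 CPM at 21 DAF. No gene was called among the 10 RNA regulation, 10 hormone and 8 stress genes tested of the study's own selections.

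The called genes were followed over the other stages. Of the 131 genes called lower, 118 were below their 21 DAF level in both cultivars at 35 DAF, 125 at 42 DAF and 128 at 49 DAF, and 129 were above their 28 DAF level in both cultivars at 14 DAF. The starch phosphorylase gene Solyc05g012510.2 ran steadily down in both cultivars from 7 to 49 DAF, while CHS2 reached 199 CPM again at 35 DAF in AC and 70.3 CPM at 42 DAF in HG6-61. Of the 46 genes called higher, 40 were above their 21 DAF level in both cultivars at 35 DAF, 29 at 42 DAF and 32 at 49 DAF. At 35 DAF 17 of them were above and 15 below their 28 DAF level in both cultivars. At least 2-fold above the mean of 21 and 28 DAF in AC were 47.8%, 34.8% and 47.8% at 35, 42 and 49 DAF. All genes gave 11.4%, 13.3% and 14.2%. In HG6-61 the shares were 45.7%, 30.4% and 43.5%, against 13.1%, 13.0% and 11.1% of all genes. At or under 0.5-fold of that mean were 26.1%, 41.3% and 21.7% in AC and 13.0%, 34.8% and 28.3% in HG6-61. PRP4 was at 142 and 40.4 CPM (AC, HG6-61) at 35 DAF and at 0 and 2.49 CPM at 42 DAF. ECP63 was at 564 and 142 CPM at 35 DAF and at 340 and 353 CPM at 42 DAF. PRP4 thus had its highest level at 28 DAF in both cultivars and ECP63 its highest level at a later stage. Since the genes were chosen by their values at 21 and 28 DAF, these counts are a description. A gene chosen for a high level at 21 DAF or a low level at 28 DAF tends to differ from it elsewhere. The 7 and 14 DAF libraries were also in the fit that called the genes. Counts against the 21 or 28 DAF level alone were not made for all genes.

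**Figure D4:**
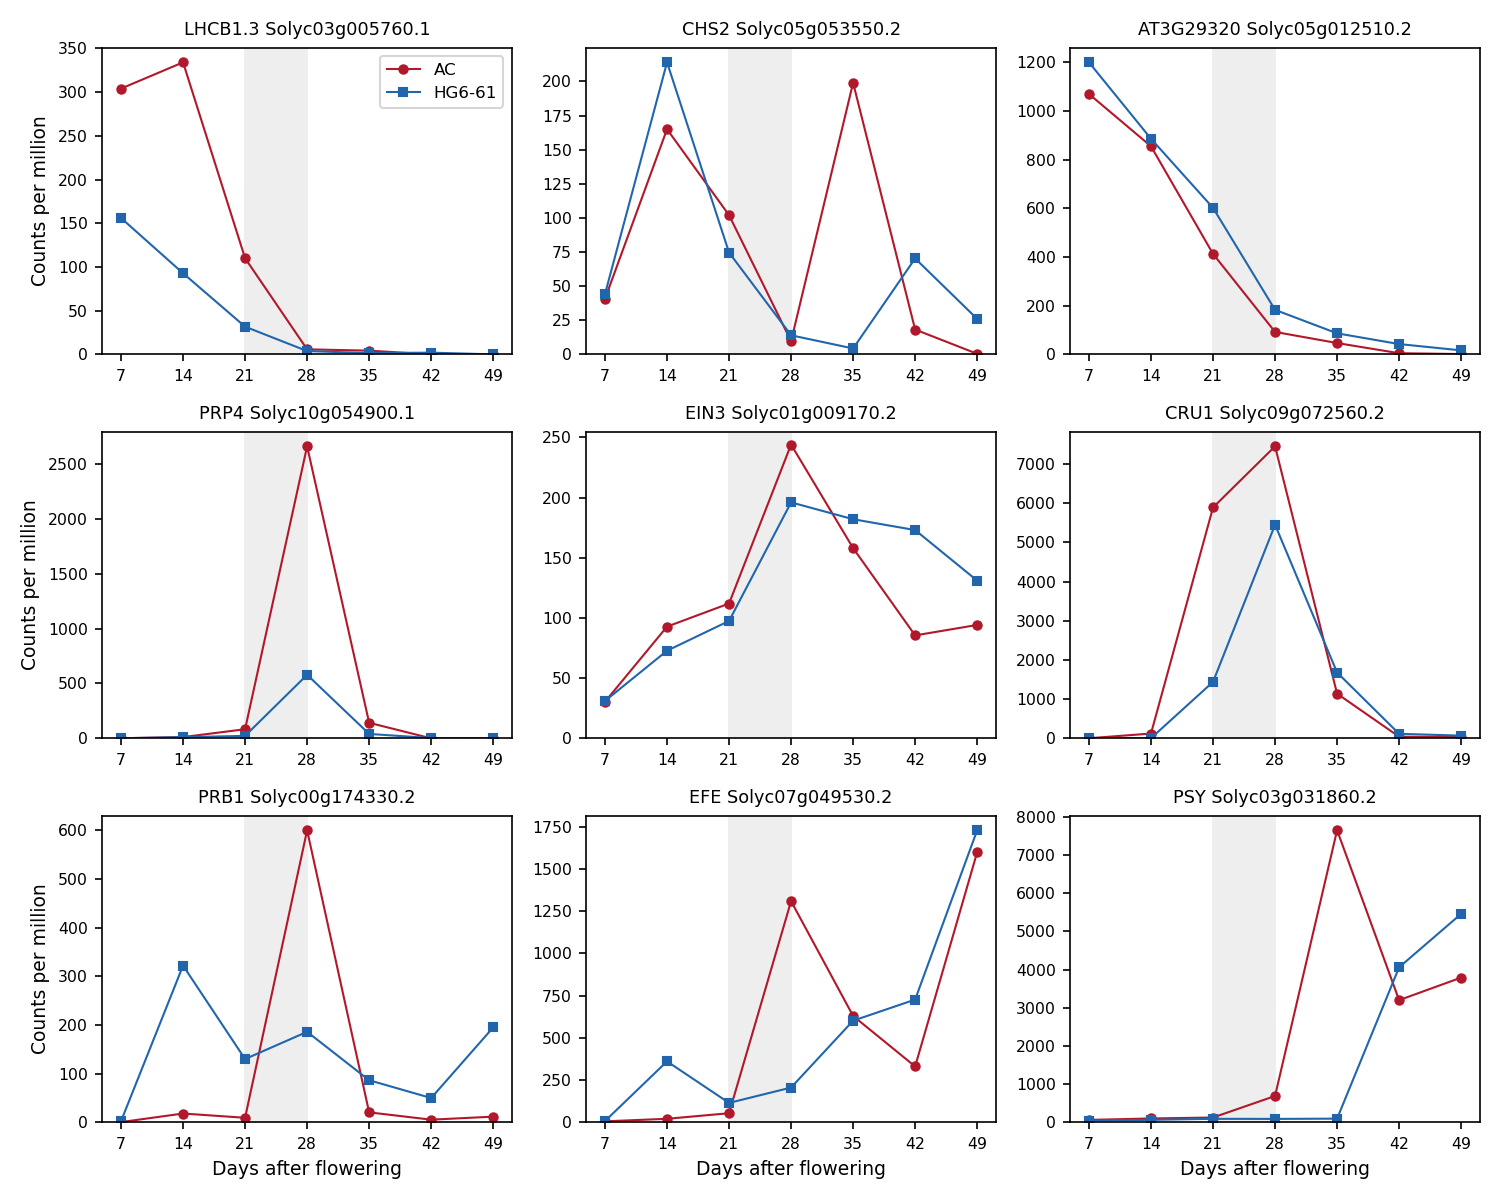
Levels in CPM, scaled over all 14 libraries, at 7 to 49 DAF in AC (circles) and HG6-61 (squares) for 9 genes, with the interval from 21 to 28 DAF shaded. The top row shows falls shared by both cultivars, the middle row shared rises (PRP4, EIN3) beside the uncalled seed storage gene CRU1, and the bottom row 3 genes that were far higher in AC than in HG6-61 at 28 DAF, of which PSY reached 4060 CPM in HG6-61 at 42 DAF.

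The size of the change was then compared between the cultivars. Across 17672 tested genes the log2 ratios of AC and HG6-61 correlated with r = 0.507, 65.7% had the same sign, and their SD was 1.18 in AC and 0.82 in HG6-61; genes are not independent replicates, and the depth of each library enters every ratio. In AC 2005 of 16969 genes (11.8%) were past 2-fold up and 1946 (11.5%) past 2-fold down, counting genes that reached 10 reads at either time. The AC split was 1658 up and 2337 down with ratios of the deposited RPKM (reads scaled by gene length and library size), and 1727 up and 2106 down with all 4 libraries thinned to 2052528 reads. In HG6-61 1016 of 18099 (5.61%) were past 2-fold up and 1877 (10.4%) past 2-fold down. Of 16448 genes measured in both cultivars, 456 (2.77%) were past 2-fold up in both, 651 (3.96%) down in both, 81 (0.492%) up in AC and down in HG6-61, and 39 (0.237%) down in AC and up in HG6-61. A gene was placed in 1 cultivar only when the other cultivar changed by less than 1.5-fold or the opposite way. By that rule 921 genes (5.6%) were up and 834 (5.07%) down in AC only, and 294 (1.79%) were up and 423 (2.57%) down in HG6-61 only. The 81 and 39 genes past 2-fold in opposite directions are counted in the totals of both cultivars. With ratios of the deposited RPKM the AC-only genes were 738 up and 1054 down. With the thinned libraries, 1490 genes changed in AC only and 738 in HG6-61 only. These counts rest on 1 library at each time and carry no test.

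The difference between the cultivars was tested for each gene as an interaction term. In the fit over all 14 libraries, with 4 residual degrees of freedom, none of 18082 genes passed in edgeR after Benjamini-Hochberg adjustment, 210 (1.16%) had an unadjusted p under 0.05, and DESeq2 called 3. In the fit over the 8 libraries from 7 to 28 DAF, with 1 residual degree of freedom, 58 of 18332 genes (0.316%) passed, 32 (0.175%) with the higher log2 change in AC and 26 (0.142%) with the higher in HG6-61. In simulated data the difference test on 18082 genes recovered 2.5% of genes with a log2 difference of 2. The simulation gave every gene the same spread, no other cultivar or stage effect, and changed only genes above the median level. The rate is therefore not the power in these data, but differences of that size may be missed. The 8-library difference fit was not simulated. The genes named next came from the 8-library fit, a choice made after their values were seen.

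Pathogenesis-related proteins were 3 of the 7 genes named for a rise in AC only. Of 48 genes for pathogenesis-related proteins, which include chitinases, glucanases and osmotins, 21 were tested and none was called over both cultivars. Of the members with 10 reads or more at either time, 21 of 24 were past 2-fold up in AC and 6 of 20 in HG6-61, and 7 met the AC-only rule for a rise. Of all genes with such reads, 11.8% were past 2-fold up in AC and 5.61% in HG6-61. The AC-only rule for a rise was met by 5.6% of all genes measured in both cultivars. The median log2 ratio of the tested members was 4.43 in AC and 0.57 in HG6-61. Their summed level was 4720 CPM in AC and 594 CPM in HG6-61 at 28 DAF, against 1220 and 384 CPM at 21 DAF. PRB1 was at 679 CPM in AC and 206 CPM in HG6-61 at 28 DAF, against 10.3 and 140 CPM at 21 DAF, and its log2 change was 5.48 larger in AC (edgeR adjusted p = 0.0015 with 8 libraries). Its AC level of 28 DAF stood above the other 3 libraries, and at 35 DAF it was 20.5 CPM in AC and 86.5 CPM in HG6-61. At every stage other than 28 DAF PRB1 was higher in HG6-61, with 18.1 CPM in AC and 322 CPM in HG6-61 at 14 DAF. The chitinase gene Solyc10g017980.1 (PR3) had 1139 and 71 reads at 28 DAF and 10 and 121 reads at 21 DAF. A second chitinase gene, Solyc07g009530.1 (PR3), had 373 and 28 reads at 28 DAF and 0 and 36 reads at 21 DAF, which is at least 66.3-fold higher in AC and 1.29-fold in HG6-61. PR4, named after its values were seen, was at 785 and 58.9 CPM at 28 DAF and 17.6 and 17.8 CPM at 21 DAF. The chitinase genes are alike in sequence, so that reads may be split unevenly between them. Not all of the family followed: Solyc03g116230.2 (PR3), the member with the most reads, was at 1430 CPM in AC and 4.23 CPM in HG6-61 at 28 DAF, against 1070 and 5.58 CPM at 21 DAF.

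NAC090, RLP7, CAD9 and LOX2 were the other 4 genes named for being past 2-fold up in AC and not in HG6-61. NAC090, a NAC transcription factor and next to Solyc11g068630.1 by gene number, had 278 and 17 reads at 28 DAF and 3 and 32 reads at 21 DAF. RLP7, a receptor-like protein, had 252 and 19 reads at 28 DAF and 0 and 33 reads at 21 DAF, at least 44.8-fold higher in AC. CAD9, matched to a cinnamyl alcohol dehydrogenase of lignin synthesis, had 152 and 6 reads at 28 DAF and 1 and 25 reads at 21 DAF, with ratios of 81.0 in AC (95% counting interval 14.3 to 3220) and 0.398 in HG6-61 (0.134 to 0.994). LOX2, a lipoxygenase of jasmonate synthesis in Arabidopsis, had 167 and 1 reads at 28 DAF and 10 and 70 reads at 21 DAF. CAD9 and LOX2 were thus past 2-fold up in AC and past 2-fold down in HG6-61. HSP17.6II was also past 2-fold up in AC and past 2-fold down in HG6-61: it is a small heat shock protein and had 561 and 59 reads at 28 DAF and 59 and 203 reads at 21 DAF. All these values rest on 1 library per cultivar and stage.

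PSY and EFE, genes of ripening, had higher levels in AC than in HG6-61 at 28 DAF. PSY (Solyc03g031860.2), the phytoene synthase that commits carbon to carotenoids in fruit, was at 780 CPM in AC and 99.6 CPM in HG6-61 at 28 DAF, against 139 and 99.2 CPM at 21 DAF. Its log2 change was 2.48 larger in AC (edgeR adjusted p = 0.0365 with 8 libraries, unadjusted p = 0.324 with 14). AC reached 7650 CPM at 35 DAF, while HG6-61 was at 96.6 CPM at 35 DAF and 4060 CPM at 42 DAF. EFE (Solyc07g049530.2), an ACC oxidase that makes ethylene, was at 1480 CPM in AC and 228 CPM in HG6-61 at 28 DAF, against 59.3 and 124 CPM at 21 DAF. It was 25.0-fold higher in AC and 1.84-fold higher in HG6-61, and the difference did not pass (edgeR adjusted p = 0.17 with 8 libraries). At 14 DAF EFE was at 21.0 CPM in AC and 361 CPM in HG6-61, above the HG6-61 level of 28 DAF. Of the ethylene genes with 10 reads, 21 of 52 were past 2-fold up in AC and 6 of 49 in HG6-61, and the median log2 ratio of the tested members was 0.74 in AC and 0.23 in HG6-61. Of all genes with 10 reads, 11.8% were past 2-fold up in AC and 5.61% in HG6-61, so that rises were more frequent in AC in general.

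A fall in AC alone and changes that ran down in AC and up in HG6-61 were also named. EXPA11, an alpha-expansin, had 2 reads in AC and 29 in HG6-61 at 28 DAF, against 41 and 41 reads at 21 DAF. PG2, named for polygalacturonase in Arabidopsis, had 92 and 1045 reads at 28 DAF and 153 and 697 reads at 21 DAF, which is 0.321-fold in AC and 2.49-fold in HG6-61. UGT85A5, a glycosyltransferase, had 35 and 142 reads at 28 DAF and 151 and 107 reads at 21 DAF. ATAPA1, an aspartic proteinase, had 36 and 49 reads at 28 DAF and 90 and 25 reads at 21 DAF. These 3 last genes were past 2-fold up in HG6-61 and past 2-fold down in AC. Markers of xylem with secondary walls, a list of 14, summed to 27.9 CPM in AC and 52.9 CPM in HG6-61 at 28 DAF, against 181 and 54.3 CPM at 21 DAF, while the lignin laccase LMCO4 and the xylem factor VND7 each had copies at 0. The cellulose synthase NWS2 of this list had 20 and 64 reads at 28 DAF and 148 and 129 reads at 21 DAF. The part of these markers in the wall genes lower in AC alone was not tested.

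The genes changed in 1 cultivar only were followed into the later stages. A level was counted as changed when it was at least 2-fold above, or at or under 0.5-fold of, the mean of 21 and 28 DAF in the same cultivar. Of the 921 genes up in AC only, 23.1% were above this mean in HG6-61 at 35 DAF, 31.4% at 42 DAF and 34.6% at 49 DAF, against 13.1%, 13.0% and 11.1% of all genes. AC itself was similar, with 25.8%, 25.7% and 33.8% above its mean, against 11.4%, 13.3% and 14.2% of all genes. Below the mean in HG6-61 were 21.2%, 27.1% and 22.8% of the 921, against 27.1%, 32.5% and 33.3% of all genes. Of the 834 genes down in AC only, 44.4% were below it in HG6-61 at 35 DAF, 65.8% at 42 DAF and 71.3% at 49 DAF, against 27.1%, 32.5% and 33.3% of all genes. AC itself had 61.4%, 69.8% and 70.4% of them below its mean, against 30%, 37.3% and 34.5% of all genes. Above the mean in HG6-61 were 8.87%, 4.56% and 4.32% of the 834. For the 294 genes up in HG6-61 only, AC was above its mean for 10.5% at 35 DAF, 10.9% at 42 DAF and 13.6% at 49 DAF, against 11.4%, 13.3% and 14.2% of all genes, and below it for 45.9%, 56.5% and 57.5%, against 30%, 37.3% and 34.5% of all genes. Of the 423 genes down in HG6-61 only, 28.6%, 45.2% and 43% were below the mean in AC, against the same 30%, 37.3% and 34.5% of all genes, and 20.6%, 15.4% and 16.5% were above it, against 11.4%, 13.3% and 14.2% of all genes. The AC-only rises had a median log2 level of AC over HG6-61 of 0.83 at 28 DAF and -0.64 at 21 DAF. The later libraries took no part in choosing these genes, but the 21 and 28 DAF libraries enter both the choice and the mean, so that no test was made.

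**Figure D5:**
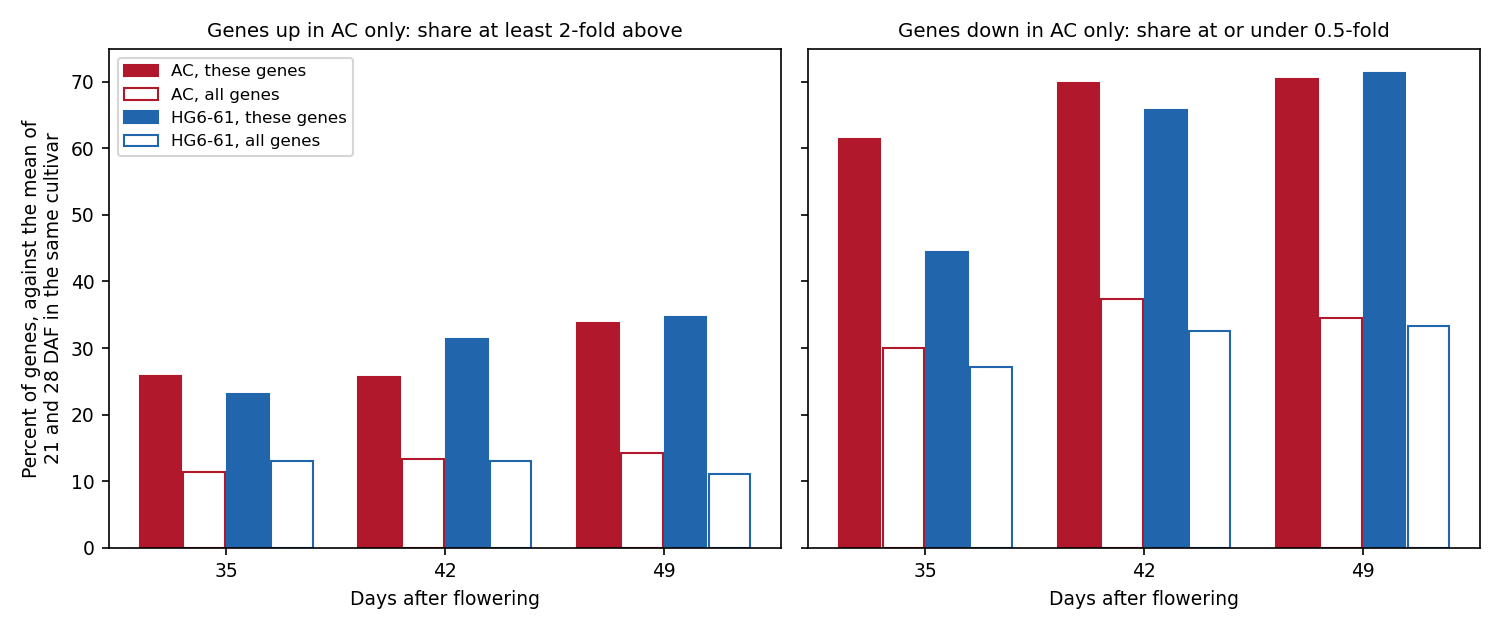
Percent of the genes up in AC only (left) that were at least 2-fold above, and of the genes down in AC only (right) that were at or under 0.5-fold of, the mean of 21 and 28 DAF in the same cultivar, at 35, 42 and 49 DAF, beside all genes (open bars). In HG6-61 the filled bars grow with stage to 34.6% (left) and 71.3% (right) at 49 DAF, against 11.1% and 33.3% of all genes. In AC they stand at 33.8% and 70.4% at 49 DAF, against 14.2% and 34.5% of all genes.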

How the data were processed

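RNA-seq was made from tomato fruit pericarp of AC and HG6-61 on an Illumina GAIIx. Per the labels and methods, the authors aligned reads with TopHat to tomato genome SL2.40 with up to 2 mismatches and removed reads mapping to several places. The raw counts per gene (26397 genes) deposited by the authors were used for all tests, and the deposited RPKM values (reads scaled by gene length and library size, 26684 genes) for alternatives, as log2(RPKM + 1) in limma. Strand use in counting is not given in the sources used here, so overlapping genes cannot be told apart. CPM were scaled with TMM over the 8 libraries from 7 to 28 DAF, or over all 14 where later stages are given.

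Counts were tested with edgeR 4.0.16 (filterByExpr, TMM, glmQLFit, glmQLFTest, terms for cultivar and stage, Benjamini-Hochberg adjustment) in R 4.3.3. Alternatives were DESeq2 1.42.0, limma 3.58.1, other libraries, filters, scalings, thinning and leaving out each library. Because there is 1 library per cultivar and stage, libraries pair by cultivar, and cultivar is the replicate block. Deviations of the AC libraries from the stage means correlated at 0.093 to 0.410 between stages. The test scripts were first tested on simulated data in which 200 genes changed. The shared test recovered 30 of these (15.0%) at a log2 change of 1 and 192 (96.0%) at a log2 change of 2. The difference test on 18082 genes recovered 5 (2.5%) at a log2 difference of 2 and 121 (60.5%) at a log2 difference of 3. A gene without a call may therefore still have changed.

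The genes named were the 12 largest rises and 12 largest falls past 2-fold in each cultivar with a symbol and a mean of at least 10 reads over the 4 libraries (counts of genes past 2-fold instead need 10 reads at either time in the cultivar, which PAR1 did not reach in AC), 2 without a symbol in each direction, up to 4 called members per list and direction (otherwise the 2 with most reads), and up to 8 genes per cultivar from the difference test. The last part used the 8-library fit, since the 14-library fit called none. Lists were matched through the Arabidopsis gene or symbol that the files pair with 23332 genes, roles are those known in Arabidopsis, and 11 Arabidopsis genes with look-alike symbols were removed by identity, after values had been seen. The comparison and the lists were chosen with earlier results of these data known. No genome of this build was used here, so positions within chromosomes are not given.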

Additional observations from a re-analysis of the deposited data

Results flagged for a closer look

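Of the 58 genes whose change from 21 to 28 DAF differed between the cultivars in the 8-library edgeR fit at a Benjamini-Hochberg adjusted p under 0.05, 14 are named in the report. None of the 58 passed over 14 libraries, where the unadjusted p of the 14 ranged from 0.000352 (PRB1) to 0.324 (PSY). The values below are log2 changes in AC minus those in HG6-61. They were positive for Solyc11g068630.1 at 7.34, for PRB1 (Solyc00g174330.2) at 5.48, for PR3 (Solyc10g017980.1) at 5.95, for NAC090 (Solyc11g068620.1) at 5.77, for LOX2 (Solyc01g006540.2) at 8.37, for CAD9 (Solyc02g069250.2) at 7.55, for HSP17.6II (Solyc08g062340.2) at 3.39 and for PSY (Solyc03g031860.2) at 2.48. Fitted values of 11.11 for PR3 (Solyc07g009530.1) and 10.97 for RLP7 (Solyc12g009770.1) depend on the prior count, since AC had 0 reads at 21 DAF. The difference was negative for EXPA11 (Solyc04g081870.2) at -5.41, for UGT85A5 (Solyc04g074340.2) at -4.15, for ATAPA1 (Solyc09g082760.2) at -3.92 and for PG2 (Solyc05g005550.2) at -2.95. LOX2, CAD9 and HSP17.6II were past 2-fold up in AC and down in HG6-61, and UGT85A5, ATAPA1 and PG2 the reverse.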

How the results depend on the processing

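The 177 genes called over both cultivars became 30 with the 4 libraries alone (27 shared, 18 higher and 12 lower), 0 with all 14 libraries, 696 with DESeq2 (255 higher, 441 lower), 786 without the filter on low counts (269 higher, 517 lower) and 96 with limma on RPKM (23 higher, 73 lower). Leaving out 1 library gave 0 to 1539 genes, of which 71 of 125 without AC at 28 DAF and 174 of 1539 without HG6-61 at 28 DAF were among the 177. Without the replicate block, that is without pairing by cultivar, 0 genes were called and 2587 had an unadjusted p under 0.05. With DESeq2 size factors 136 remained. The called genes kept their direction in every setting in which they had a value (175 to 177 genes). This was nearly fixed in advance, since all settings reuse the same libraries. All 46 genes called higher and 125 of the 131 called lower were past 2-fold the same way in each cultivar. At the strict limits the count of 0 became 157 with DESeq2, 154 without the filter and 0 to 565 on leaving out 1 library. For the difference between cultivars the count of 0 became 58 with 8 libraries and 3 with DESeq2. Requiring 30 reads, 2503 genes were past 2-fold in AC against 3951 with 10 reads, 1065 against 1755 in AC only, 1657 against 2893 in HG6-61 and 325 against 717 in HG6-61 only. LOX2 reversed without AC at 28 DAF (log2 change -5.21, adjusted p = 0.0229, against an uncalled 1.28), and ranged up to 3.05 on leaving out a library. Of the 58 named called genes, 12 were called with the 4 libraries and 57 with DESeq2. The cause of these differences was not tested. Depth limits genes near 3 reads, above all in AC at 21 DAF, and no library is replicated within a cultivar.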
